A study of Mus musculus with 2 samples.

Results

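Cycling MØs are the macrophages of visceral adipose tissue (VAT) that carried transcripts of DNA copying and cell division. They were selected on measured UMIs, the unique molecular identifiers that count single RNA molecules. A cell barcode was a member when Top2a, Mki67, Birc5, Cdk1 and Ube2c together held at least 5 UMIs, when Csf1r and Adgre1 together held at least 1, and when the dendritic cell genes Xcr1, Clec9a and Cd209a, the T cell genes Cd3d, Cd3e and Cd3g, and the B cell gene Cd79a each summed to at most 1. The rule was applied to barcodes with at least 200 genes and at most 6% of their UMIs from mitochondrial genes. It found 287 members among the 8417 cells that passed this cell filter (9357 barcodes in all), 60 in the library from calorie-restricted (CR) VAT and 227 in the library from obese VAT. The cells compared with them are the other MØs, which met the same lineage limits but held fewer than 5 cycle UMIs (1190 in CR and 3007 in obese VAT).

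Viable CD45+ cells were sorted from perigonadal fat of male C57BL/6J mice and their 3′ transcript ends were counted in droplets. In both groups the mice were bought at 6 weeks of age, given 2 weeks to settle, injected each week with 5 mg/kg of an antisense oligonucleotide that lowers the LDL receptor, and fed for 24 weeks a diet with 60% of its calories as fat and 0.3% cholesterol. The obese mice had no restriction and were harvested at week 24. The CR mice then received 70% of the food that they ate freely for 2 further weeks. They were thus 2 weeks older at harvest, and age and time since the start of the diet cannot be told apart from restriction. A label of the CR library speaks of restriction over the whole life instead, and the description in the methods is followed here. Each group is 1 library, the number of mice behind it is not given in the sources used here, and differences therefore carry no p-value. Intervals of shares, levels and ratios of single genes are 95% intervals that cover counting error only. A difference beyond them is a difference between these libraries. Intervals of median positions in the cycle are 95% intervals over the cells of a library. Bounds beside the median of a gene list are medians of the bounds of its genes, and not a 95% interval of the list median.

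MØs of adipose tissue come both from monocytes that enter from the blood and from cells that divide in place, and local division is a known source of MØs in obese fat. A cell that commits to division first makes cyclins and the proteins that load and copy DNA (S phase), then those that condense chromosomes, build the spindle and separate the copies (G2 and M phase). Top2a untangles DNA and Mki67 coats mitotic chromosomes. Birc5 (survivin) is part of the complex that corrects chromosome attachment, Cdk1 is the kinase that drives entry into mitosis, and Ube2c hands ubiquitin to the anaphase promoting complex. Stmn1 takes microtubules apart. The 5 genes of the rule lean towards G2 and M phase, so cells early in S phase can be missed.

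Many genes of late cell cycle share a promoter element known as CHR, to which MuvB complexes bind, together with CCAAT boxes, the sites of NF-Y, whereas genes of the start of S phase often carry E2F sites. Promoters of 300 bases (250 before to 50 after the start, RefSeq, GRCm38.p6) were searched on both strands for the CHR letters TTTGAA, for the CCAAT box and for the E2F site in 3 spellings, which were GCGGGAAA or GGCGGGAA or TTTGGCGC. CHR letters were present in 4 of the 5 genes of the rule (80%), in 19 of 29 promoters of the mitotic list described below (65.5%) and in 4 of 22 of the replication list (18.2%), against 18.1% of all 27025 promoters. E2F letters were found in 12 of 22 replication promoters (54.5%) and in none of the 29 mitotic promoters or the 5 of the rule, against 3.31% of all promoters. CCAAT was present in 75.9% of mitotic, 72.7% of replication and 37.9% of all promoters. A match is a description of letters and not a bound site. The 120 bases before the start are shown for 3 genes of the rule and for Mcm6, a subunit of the replicative helicase, because they show the contrast between mitotic and replication promoters. Capitals mark the motifs searched.
Top2a, chr11:99024190-99024309, minus strand: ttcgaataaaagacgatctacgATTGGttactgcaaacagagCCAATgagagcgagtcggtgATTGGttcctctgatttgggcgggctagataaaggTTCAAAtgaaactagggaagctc
Cdk1, chr10:69352913-69353032, minus strand: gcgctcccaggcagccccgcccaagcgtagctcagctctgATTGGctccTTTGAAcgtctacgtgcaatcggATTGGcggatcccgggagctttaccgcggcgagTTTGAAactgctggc
Ube2c, chr2:164769809-164769928, plus strand: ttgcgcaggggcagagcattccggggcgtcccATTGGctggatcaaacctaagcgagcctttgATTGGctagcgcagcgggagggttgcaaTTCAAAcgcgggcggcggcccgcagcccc
Mcm6, chr1:128359706-128359825, minus strand: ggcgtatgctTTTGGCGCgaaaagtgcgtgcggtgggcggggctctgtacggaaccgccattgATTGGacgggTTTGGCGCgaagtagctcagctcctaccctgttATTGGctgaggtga
The Cdk1 stretch held 2 CHR and 2 CCAAT matches and that of Mcm6 held 2 E2F and 2 CCAAT matches. The Birc5 promoter held none of the 3 motifs.

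The cycle genes separated the members from other MØs by construction. Summed over the 5 genes of the rule, members held 1862 CPM (UMIs of the gene per 1000000 UMIs) in CR and 1706 CPM in obese VAT, against 28.7 and 31.4 CPM in other MØs, of which 85.0% and 82.3% had no cycle UMI at all. Members held a median of 14 cycle UMIs in CR (range 5 to 147) and 16 in obese VAT (5 to 113). Just inside the threshold, at 5 UMIs, lay 5 CR and 19 obese members, and just outside it, at 4 UMIs, lay 2 CR and 21 obese cells. Those inside held a median of 18 and 12 UMIs of the replication and mitotic lists, and those outside held 26 and 11, so the edge cells of both sides carried other cycle transcripts at similar levels. Stmn1, a marker that the rule did not use, was detected in 100% of CR and 96.9% of obese members at 1918 and 1811 CPM, against 27.6% and 35.0% of other MØs at 103 and 142 CPM.

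The name MØ was checked against 10 macrophage markers, of which Csf1r and Adgre1 were used by the rule. The limit on these 2 genes was met with only 1 UMI by 19 of the 60 CR and 25 of the 227 obese members. The other 8 were detected in members of both libraries, although Mertk, a receptor for dying cells, had a UMI in 5% of CR and 15.0% of obese members. The 10 together made up a median of 0.902% of the UMIs of a CR member (range 0.0643 to 3.44) and 1.43% of an obese member (0.0325 to 7.05), against 1.47% and 2.86% in other MØs. C1qa, a subunit of the complement starter C1q, stood at 1980 CPM in CR and 1718 CPM in obese members, against 2851 and 3423 CPM in other MØs. The lysosomal glycoprotein gene Cd68 stood at 907 and 1041 CPM, against 752 and 1085 CPM. Markers of NK cells and innate lymphoid cells summed to 9.99 CPM in CR and 37.9 CPM in obese members, those of B and plasma cells to 177 and 44.6 CPM, and those of fibroblasts and mesothelial cells to 144 and 150 CPM. The T cell markers summed to at most 11.4 CPM in either library, and the rule itself limits several of them. Some members held few of these transcripts. The 10 markers were under 0.3% of the UMIs in 9 CR and 17 obese members, and these cells (2 obese cells rich in haemoglobin left out) held 30.1 and 65.6 CPM of Flt3, the growth factor receptor of dendritic cell precursors, against 0 and 1.82 CPM in the remaining members. Haemoglobin and Alas2 made up at least 1% of the UMIs in 6 obese members (2.10% to 92.3%) and in no CR member. A stricter set without both kinds of cell, chosen after seeing the data, held 51 CR and 206 obese members, and it is given beside the results that it moves.

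**Figure D1:**
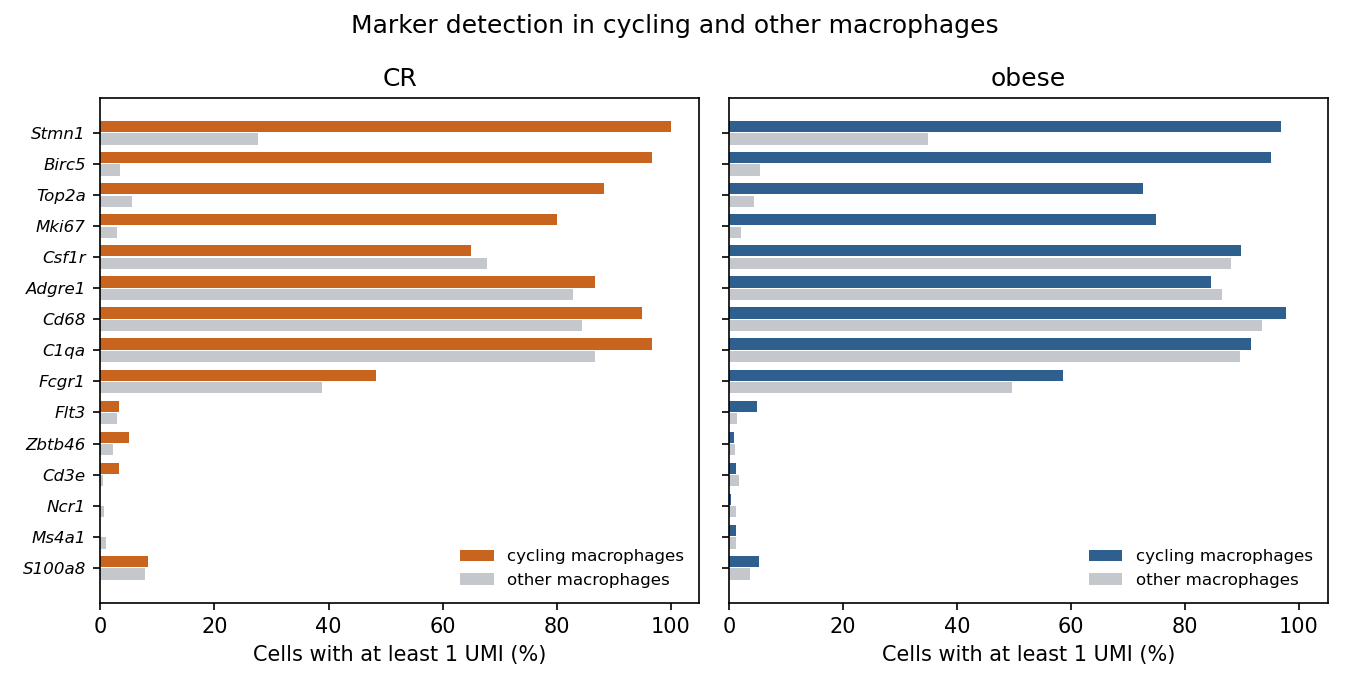
Share of cells with at least 1 UMI (%) of the cycling markers, of macrophage markers and of markers of other cell types, in CR (left) and obese VAT (right), for cycling MØs (coloured bars) and other MØs (grey bars). Cycling markers separated the groups, as the rule required, while the macrophage markers plotted were found in 48.3% (Fcgr1, CR) to 97.8% (Cd68, obese) of cycling MØs. Mertk, at 5% in CR and 15.0% in obese VAT, is not plotted.

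Library facts that bear on the members are few. The CR library held 19696476 UMIs and the obese library 42948242. Members were deeper than other MØs, with a median of 10375 UMIs in CR and 11657 in obese VAT, against 5922.5 and 6888, and 5 CR and 31 obese members held more than 20000 UMIs. Doublets were not removed, and cells above 20000 UMIs were left out as an alternative. The libraries shared 28 barcodes, none of them a member. Transcripts of stromal cells were spread over the CR library. Dcn, a matrix gene of fibroblasts, had a UMI in 58.3% of CR and 10.1% of obese members and in 37.6% and 4.99% of T cells, a type that should lack it, at median depths of 2649.5 and 3409 UMIs per T cell.

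The first comparison asks how many MØs were cycling in each diet. Members were 4.80% of the MØs in CR (95% interval 3.68 to 6.14) and 7.02% in obese VAT (6.16 to 7.95). As shares of all cells that passed the filter they were 1.99% (1.52 to 2.55) and 4.20% (3.68 to 4.77). Cells within the MØ lineage limits were 41.5% of these cells in CR and 59.9% in obese VAT, which also entered these values. The paper excluded clusters of non-haematopoietic origin, which were a larger part of its CR than of its obese cells. Such cells were not removed here, so shares of all cells are not shares of leukocytes. Because the rule counts UMIs and the obese library was deeper, the share was repeated at equal depth. With every cell thinned to 2000 UMIs and 2 cycle UMIs required, it was 3.80% (2.81 to 5.02) in CR and 5.66% (4.89 to 6.51) in obese VAT (14 CR cells and 0 obese cells were shallower). At 4000 UMIs and 3 cycle UMIs it was 5.96% (4.54 to 7.67) and 6.85% (5.94 to 7.85), with 311 CR and 446 obese cells left out. The CR share was the lower value at each depth, and the intervals of the libraries overlapped at both equal depths. T and B cells can also divide. Of T cells with at least 2000 UMIs, 2.43% in CR and 4.07% in obese VAT reached 5 cycle UMIs, and of such B cells 1.16% and 1.94%. Their median depths were 2692 and 3409 UMIs for T cells and 2804 and 3844 for B cells, against 5922.5 and 6888 in other MØs. They were not thinned to equal depth, so these shares cannot be ranked against those of MØs. Members were 51.3% of all CR cells and 58.7% of all obese cells with at least 5 cycle UMIs.

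The second comparison asks which kind of MØ was dividing. Each cell was thinned to 2000 UMIs and called Fcgr4-high with at least 3 UMIs of Fcgr4, a receptor for IgG, Gpnmb-high with at least 3 UMIs of Gpnmb, Mmp12 and Atp6v0d2, genes of lipid-laden MØs, and Lyve1-positive with at least 2 UMIs of Lyve1, Cbr2 and Fcna, genes of resident MØs. Of the 60 CR members, 26 were Fcgr4-high, 3 Gpnmb-high, 2 Lyve1-positive, 1 met more than one rule and 28 had no type. Of the 227 obese members, 9 were Fcgr4-high, 29 Gpnmb-high, 13 Lyve1-positive and 176 had no type. At most 2.89% of T or B cells of a library met any one of these rules.

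The makeup of cycling MØs followed that of the other MØs of their library for most types. Fcgr4-high cells were 43.3% of CR members (30.6 to 56.8) and 45.7% of other CR MØs (42.8 to 48.6). In obese VAT they were 3.96% of members (1.83 to 7.39), below the 8.95% of other MØs (7.95 to 10.0). Gpnmb-high cells were 12.8% of obese members (8.73 to 17.8) and 10.9% of other obese MØs (9.82 to 12.1), and Lyve1-positive cells 5.73% (3.08 to 9.59) and 7.62% (6.69 to 8.62). Cells of no type were 77.5% of obese members (71.5 to 82.8) and 72.4% of other obese MØs (70.8 to 74.0). The Fcgr4-high share of members was higher in CR than in obese VAT beyond its counting error, as it was among other MØs.

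Seen from each type, the cycling share lay between 3.24% and 8.12%, leaving out the few cells that met more than one rule. Fcgr4-high MØs were cycling in 26 of 563 cells in CR (4.62%, 3.04 to 6.69) and 9 of 278 in obese VAT (3.24%, 1.49 to 6.06). Gpnmb-high MØs were cycling in 3 of 51 cells in CR (5.88%, 1.23 to 16.2) and 29 of 357 in obese VAT (8.12%, 5.51 to 11.5). Lyve1-positive MØs were cycling in 2 of 33 cells in CR (6.06%, 0.743 to 20.2) and 13 of 242 in obese VAT (5.37%, 2.89 to 9.01). MØs of no type were cycling in 28 of 583 cells in CR (4.80%, 3.21 to 6.87) and 176 of 2353 in obese VAT (7.48%, 6.45 to 8.62). Within each library the intervals of the types overlapped, except that the Fcgr4-high share lay below the no-type share in obese VAT. With types called at 4000 UMIs and limits of 6, 6 and 4 that exception was lost, at 6.80% for Fcgr4-high (3.31 to 12.2) and 8.12% for no type (7.01 to 9.36). Depth moved with these shares, since other Gpnmb-high MØs held a median of 11201 UMIs in obese VAT and other Fcgr4-high MØs 4458. With membership also called at 2000 UMIs, the obese Gpnmb-high share was 4.48%, and Fcgr4-high (3.24%, 1.49 to 6.06) and no type (6.33%, 5.38 to 7.39) overlapped.

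**Figure D2:**
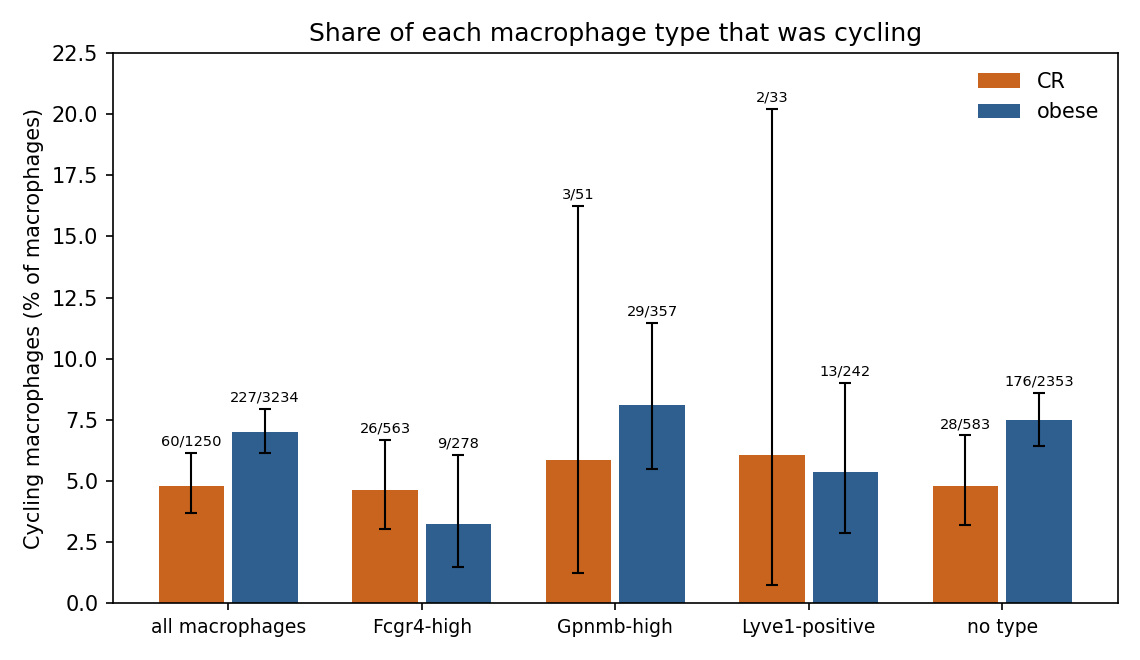
Cycling MØs as a percentage of all MØs and of each MØ type, in CR (orange, left of each pair) and obese VAT (blue, right). Error bars are exact 95% binomial intervals and the labels give members over cells of the type. The share was 4.80% in CR and 7.02% in obese MØs as a whole, and the bars of the rare CR types rest on 3 and 2 members.

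The genes that set a type are high in its cells by construction, and their levels are a description. In Fcgr4-high members Fcgr4 stood at 3058 CPM in CR (2839 to 3289) and 2950 CPM in obese VAT (2614 to 3318), against 403 and 69.1 CPM in members of no type. Other Fcgr4-high MØs held more of it, 4563 CPM in CR (4488 to 4639) and 3489 CPM in obese VAT (3391 to 3589). Over all types, Fcgr4 stood at 1306 and 158 CPM in members, against 1934 and 335 CPM in other MØs. In obese VAT, Gpnmb stood at 1794 CPM in the 29 Gpnmb-high members, against 2079 CPM in other Gpnmb-high MØs. In the 13 obese Lyve1-positive members Lyve1 stood at 117 CPM (66.6 to 189) and Fcna at 58.3 CPM (25.2 to 115), below the 318 CPM (290 to 348) and 339 CPM (310 to 371) of other obese Lyve1-positive MØs. Cbr2 stood at 867 CPM (718 to 1037) in these members, against 1142 CPM (1088 to 1198). It held most of the UMIs behind this type, with 119 in the 13 members, against 16 of Lyve1 and 8 of Fcna. The 2 CR members of the type held 14 UMIs of Cbr2, 9 of Fcna and 1 of Lyve1. Lyz2, the lysozyme gene, stood at 392 CPM in CR Fcgr4-high members and 5287 CPM in obese Fcgr4-high members, so the 2 sets of Fcgr4-high members were not alike in every gene. The MHCII chain gene H2-Aa stood there at 1025 and 3236 CPM. In T cells Lyz2 stood at 545 CPM in CR and 725 CPM in obese VAT, and H2-Aa at 600 and 2578 CPM. The part of background RNA in these values was not tested. Members of no type in obese VAT held 257 CPM of Ccr2, the chemokine receptor by which monocytes enter tissue, and 1758 CPM of Retnla, a gene of alternative activation, close to the 274 and 1724 CPM of other obese MØs of no type.

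The third comparison asks where in the cycle the members stood. Each member was given a position, the UMIs of 33 mitotic genes divided by those of the mitotic and 27 replication genes together, with the 5 genes of the rule left out of both lists. Values near 0 mark cells rich in replication transcripts and values near 1 cells rich in mitotic ones. The median was 0.73 in CR VAT (0.53 to 0.81) and 0.80 in obese VAT (0.77 to 0.85), with quartiles of 0.38 and 0.88 in CR and 0.50 and 0.93 in obese VAT. Members above 0.667, called mitosis-rich, were 53.3% in CR VAT (40.0 to 66.3) and 63.2% in obese VAT (56.5 to 69.6). Members below 0.333, called replication-rich, were 23.3% in CR VAT (13.4 to 36.0) and 12.6% in obese VAT (8.51 to 17.6). Both intervals overlapped between the libraries. The position is a range and not a phase, 9 CR and 28 obese members lay within 0.05 of a limit, and 4 obese members with under 5 UMIs of the lists had no position. With the published S and G2/M lists in their place, replication-rich members were 1.67% in CR and 1.77% in obese VAT.

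Position was also described by type, and most intervals overlapped. Fcgr4-high members had a median position of 0.52 in CR (n = 26, 0.31 to 0.73) and 0.50 in obese VAT (n = 9, 0.40 to 0.73), and 34.6% of the CR ones were replication-rich. Members of no type had medians of 0.76 in CR (n = 28, 0.60 to 0.89) and 0.84 in obese VAT (n = 172, 0.79 to 0.88). In obese VAT the median was 0.70 for Gpnmb-high (n = 29, 0.40 to 0.85) and 0.68 for Lyve1-positive members (n = 13, 0.19 to 0.94). In obese VAT the interval of Fcgr4-high members lay below that of members of no type, while in CR the 2 intervals overlapped. Positions from the published lists were not split by type.

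**Figure D3:**
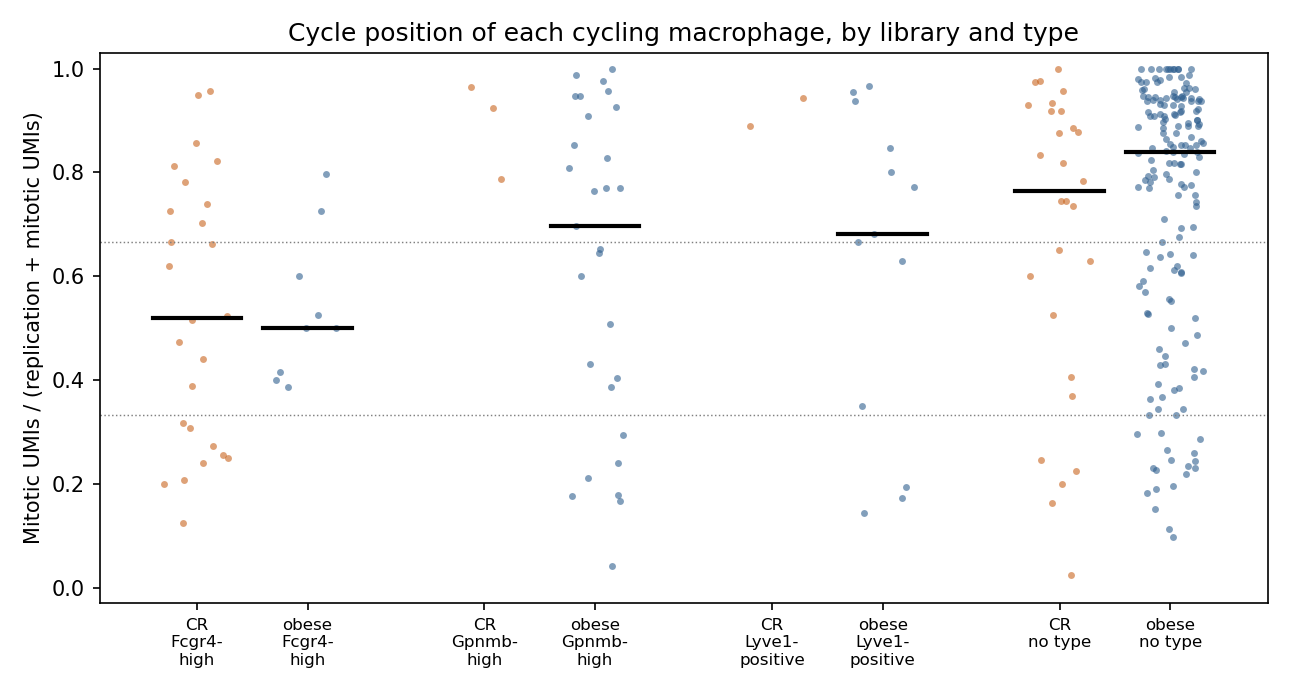
Cycle position of single cycling MØs (1 point per cell; mitotic UMIs over replication plus mitotic UMIs, no unit), by type, with CR (orange) left of obese VAT (blue) in each pair. Black lines are medians, drawn for 5 or more cells, and dotted lines the limits at 0.333 and 0.667. Fcgr4-high members centred at 0.52 and 0.50 and members of no type at 0.76 and 0.84.

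Levels of the 2 lists were also summed over all members of a library. The 27 replication genes held 1731 CPM in CR (1634 to 1831) and 1219 CPM in obese members (1180 to 1259), against 266 and 231 CPM in other MØs. The 33 mitotic genes held 3660 CPM in CR (3519 to 3804) and 3115 CPM in obese members (3052 to 3179), against 197 and 156 CPM. Both sums were higher in CR members when all members were counted. Sums weigh cells by depth, and 5 CR and 31 obese members held more than 20000 UMIs. The deepest CR member alone held 291 of the 2563 mitotic UMIs of CR members. The intervals do not cover such spread between cells. The sums were not repeated without cells over 20000 UMIs, so no direction of the mitotic sum is given for the remaining members. Of single genes of the rule, Top2a stood at 374 CPM in CR and 262 CPM in obese members (log2 ratio of CR to obese 0.50), Mki67 at 233 and 161 CPM (0.52), Birc5 at 633 and 607 CPM (0.06), Cdk1 at 263 and 229 CPM (0.19) and Ube2c at 360 and 446 CPM (−0.31). In GRCm38 Top2a lies on chromosome 11 (98992943 to 99024189), Mki67 on chromosome 7 (135689784 to 135716361), Birc5 on chromosome 11 (117849251 to 117855743), Cdk1 on chromosome 10 (69335146 to 69352938) and Ube2c on chromosome 2 (164769898 to 164778822).

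For ratios of levels, 5 CPM was added to each side. A gene entered when the sets compared held at least 20 of its UMIs in sum and when it reached 50 CPM in one of them. A gene is called when it was at least 2-fold apart with an interval that left out 0 on the log2 scale. Against other MØs, 216 genes were higher in CR members (7.03% of 3074) and 103 lower (3.35%), and in obese members 160 were higher (5.97% of 2680) and 24 lower (0.896%). These counts are a description, since the members were chosen by cell cycle transcripts. Of the 148 genes higher in members of both libraries, 97 belonged to a cell cycle list.

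By role, the genes of copying and of division were both higher in members. Origin licensing genes had a median log2 ratio to other MØs of 1.69 in CR (12 of 13 measured genes called higher) and 1.65 in obese VAT (8 of 8), replication fork genes of 2.12 (20 of 21) and 1.73 (14 of 16), kinetochore and checkpoint genes of 3.37 (18 of 19) and 3.25 (15 of 15), and spindle and kinesin genes of 3.51 (22 of 22) and 3.27 (17 of 17). The replication genes with the highest levels were Rrm2, a subunit of ribonucleotide reductase, at 196 CPM in CR and 142 CPM in obese members, and Tyms, which makes thymidylate, at 147 and 113 CPM. Of the mitotic genes, Cks2, a partner of CDKs, stood at 388 and 357 CPM, the centromere histone gene Cenpa at 333 and 356 CPM, and the cyclin gene Ccnb2 at 267 and 278 CPM. Outside the cell cycle lists the highest included Pbk, a mitotic kinase (4.16 in CR and 3.96 in obese VAT), Lockd, a non-coding RNA beside Cdkn1b (4.22 and 3.63), and Ezh2, the methyltransferase of histone H3 lysine residues (2.66 and 2.49).

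Genes of MØ function were mostly lower in members or near the median. The MHCII genes were lower in members than in other MØs, with a median of −0.68 in CR and −0.58 in obese VAT and 6 of 6 genes below 0 in both, but none called. Lyz2 stood at a log2 ratio of −1.22 in CR and −1.06 in obese VAT. The genes of growth factor receptors and self-renewal factors had medians of −0.26 and −0.33, with Csf1r, the receptor of the MØ growth factor M-CSF, at −0.57 and −0.69. Monocyte genes differed between the libraries, at a median of −2.58 in CR (6 of 9 called lower) and −0.07 in obese VAT (2 of 9 called lower). Lipid-associated MØ genes had medians of 0.26 and 0.01, and glycolysis genes 0.32 and 0.24, with no gene of glycolysis called in either library. Over all genes tested the medians were 0.11 and 0.09.

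Between the diets, 135 of 2977 genes were higher in CR members (4.53%) and 31 lower (1.04%), against 144 (5.28%) and 24 (0.881%) of 2725 genes in other MØs. Of these, 73 genes were higher and 7 lower in CR in both comparisons. Among members of no type alone, 80 of 2957 genes were higher in CR (2.71%) and 37 lower (1.25%). The median over all genes was 0.14 in members, and 1962 of the 2977 genes lay above 0. With size factors from the median of ratios, which move that median by −0.14, 96 genes were higher and 41 lower, a higher share of 70.1% of calls in place of 81.3%. With the mean of per-cell CPM the counts were 161 and 63 (71.9%).

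Genes of the Fcgr4 programme were higher in CR members, with a median of 1.37 and 7 of 10 measured genes called higher (17 listed). Fcgr4 itself (chromosome 1, 171018920 to 171029761) stood at 1306 CPM in CR and 158 CPM in obese members (log2 ratio 3.01, 2.85 to 3.17), and had a UMI in 88.3% and 41.0% of them. In T cells it had a UMI in 16.5% in CR and 7.76% in obese VAT (103 and 29.2 CPM). Cd300e, a receptor of non-classical monocytes, stood at 368 and 32.0 CPM (3.34), and the lectin genes Clec4a1 and Clec4a3 at ratios of 1.89 and 1.84. The same programme had a median of 1.11 in other MØs (9 of 13 called higher) and of 0.98 in members of no type (3 of 9 called higher).

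Also among the highest ratios in CR members were Lipg, endothelial lipase (330 CPM in CR and 13.6 CPM in obese members, 4.17), Klra17, a lectin-like receptor gene (170 and 6.32 CPM, 3.95), Itgad, an integrin of tissue MØs (130 and 7.99 CPM, 3.38), Fcrl5, an Fc receptor-like gene (106 and 6.99 CPM, 3.21), and Cd72, an inhibitory receptor (695 and 86.2 CPM, 2.94). All 5 were found in at least 48.3% of CR members and lay between 2.27 and 3.31 in other MØs, so the direction was the same in cells that were not cycling. Whether the sizes differed was not tested. Asb2, a part of a ubiquitin ligase, had a ratio of 3.70 over all members and 0.70 in members of no type. Cxcl13, a chemokine for B cells, had a ratio of 3.67, but 3 cells held 96.6% of its CR UMIs.

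Single regulators of cell cycle entry differed between the diets, while their lists lay near the median of all genes (0.14). Cyclins and CDKs had a median of 0.16 (8 of 12 above 0, 1 called higher). CDK inhibitors and p53 targets had a median of 0.15 (8 of 12 above 0). Ccnd2, cyclin D2, which pairs with CDK4 and CDK6 to open the cycle (chromosome 6, 127125162 to 127152193), stood at 303 CPM in CR and 25.0 CPM in obese members (3.36, 3.00 to 3.73) and had a UMI in 61.7% and 18.1% of them. Other MØs showed 416 and 48.1 CPM (2.99), so Ccnd2 was not higher in cycling than in other MØs of either library. Among members of no type it stood at 86.5 and 23.3 CPM (1.69). Its partner Cdk6 stood at 88.5 and 46.3 CPM (0.87) and Ccnd1, cyclin D1, at 103 and 63.6 CPM (0.65). Of the 12 measured CDK inhibitors and p53 targets 3 were called higher in CR. These were Phlda3, a p53 target that restrains AKT (140 and 15.0 CPM, 2.86), Cdkn2a, which encodes the CDK4 inhibitor p16 and ARF (57.1 and 12.98 CPM, 1.79), and Cdkn1b, which encodes the CDK inhibitor p27 (67.1 and 26.0 CPM, 1.22). Cdkn2a was lower in members than in other MØs in CR (157 CPM there, log2 ratio −1.38), whereas in obese VAT the ratio was −0.30. In the stricter set Cdkn1b lay at 0.99 and was not called. The list of CDK inhibitors and p53 targets had a median of −0.01 in that set (2 of 12 called higher). In members of no type its median was 0.02 (1 of 10 called higher).

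Replication genes lay slightly higher in CR members, where 1962 of all 2977 genes tested also lay above 0 (median 0.14). All 21 measured replication fork genes lay above 0, with a median of 0.41 (medians of the genes' bounds 0.04 and 0.74). Of these, 1 was called, Hells, a chromatin remodeller of replicating cells (57.1 and 24.3 CPM, 1.08), beside 4.53% of all genes called higher. In other MØs the 3 fork genes measured had a median of 0.43. Origin licensing genes had a median of 0.43, with 11 of 13 above 0 and none called. Mcm5 stood at 133 and 79.9 CPM (0.70), Mcm7 at 130 and 76.9 CPM (0.72) and the clamp loader gene Rfc3 at 85.7 and 43.3 CPM (0.91). The histone gene Hist1h2ae stood at 98.5 and 39.3 CPM (1.23), while its list had a median of 0.10. The medians of the lists of mitosis were 0.15 for kinetochore and checkpoint genes (14 of 19 above 0) and 0.35 for spindle genes and kinesins (21 of 22). They were 0.41 for chromosome condensation and cohesion (9 of 10) and 0.20 for the anaphase promoting complex (7 of 11). No gene was called in any of the 4. The replication fork median was 0.26 with median of ratios factors (21 of 21 above 0), 0.72 without cells over 20000 UMIs and 0.23 (18 of 19 above 0) with at least 3 UMIs of Csf1r and Adgre1. In the stricter set that of the spindle list was 0.16.

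**Figure D4:**
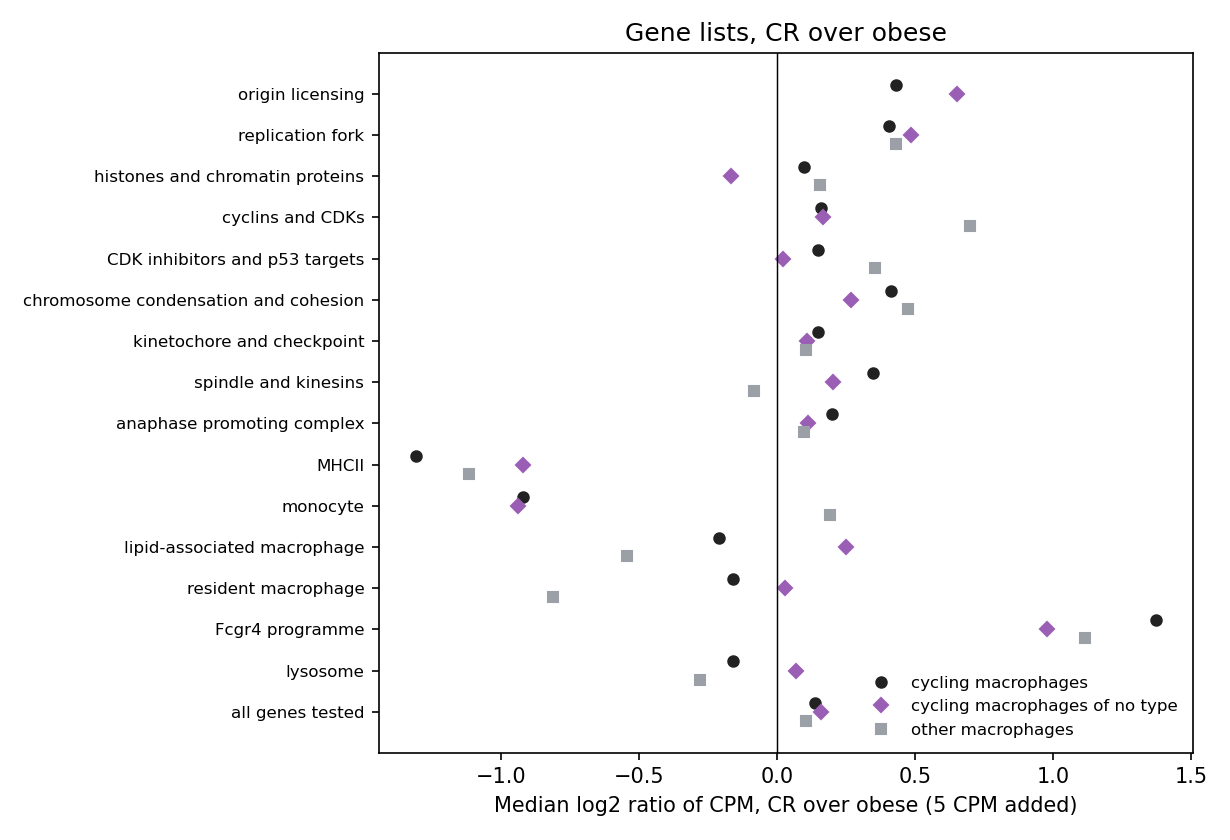
Median log2 ratio of CPM, CR over obese, for each gene list (rows) in cycling MØs (circles), cycling MØs of no type (diamonds) and other MØs (squares). The MHCII median was −1.31 and that of the Fcgr4 programme 1.37 in cycling MØs, and the lists of replication and mitosis lay between 0.10 and 0.43.

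MHCII genes were lower in CR members. Their median was −1.31, with 6 of 6 below 0 and 4 called lower. H2-Aa stood at 2444 CPM in CR and 6105 CPM in obese members (−1.32), H2-Eb1 at 1642 and 4234 CPM (−1.36), H2-Ab1 at 2520 and 6200 CPM (−1.30), and Cd74, the invariant chain that guides them, at 6617 and 16528 CPM (−1.32). The difference was of similar size in other MØs (median −1.12) and smaller in members of no type (−0.92, 1 of 6 called lower). In T cells H2-Aa stood at 600 CPM in CR and 2578 CPM in obese VAT, so background RNA of this gene moved with the difference, and its part in it was not tested.

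Among genes lower in CR members, Retnla stood at 103 CPM in CR and 1536 CPM in obese members (−3.84), with a UMI in 15.0% and 54.2% of them, and at −2.77 in other MØs. T cells held 12.1 and 134 CPM of it. Lyz1, a lysozyme gene, stood at 9.99 and 116 CPM (−3.01), Fn1, fibronectin, at 30.0 and 192 CPM (−2.49), Il1rn, the interleukin-1 receptor antagonist, at 8.57 and 58.2 CPM (−2.22), and Cxcl1, a neutrophil chemokine, at 113 and 365 CPM (−1.65). Fn1 lay at 0.06 in other MØs. Cd36, a receptor for oxidised lipoproteins and fatty acids, stood at 530 and 1229 CPM (−1.21, and −0.73 in other MØs), and the protease gene Ctsl at 527 and 1148 CPM (−1.12). Tppp3 and Pdlim1, which bind tubulin and actin-linked proteins, lay at −1.91 and −1.87.

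A few cells carried some of these values. Of the obese members' UMIs, 3 cells held 98.3% for Slpi, a protease inhibitor (9.99 CPM in CR and 401 CPM in obese members, −4.76), 97.5% for Saa3, an acute phase gene (11.4 and 253 CPM, −3.98), and 85.6% for Ly6c2, the marker of classical monocytes (5.71 and 62.6 CPM, −2.66). The list of monocyte genes had a median of −0.92, with 3 of 6 measured genes called lower in CR, against 0.19 in other MØs. Ccr2 stood at 131 CPM in CR and 205 CPM in obese members (−0.62) and had a UMI in 21.7% and 66.5% of them. For Ccr2, 3 cells held 55.4% of the CR and 7.32% of the obese UMIs. For Plac8, another monocyte gene (27.1 and 69.9 CPM, −1.22), 3 cells held 89.5% of the 19 CR UMIs and 56.7% of the obese UMIs. For Fn1, by contrast, 3 cells held 24.6% of the obese UMIs.

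The lipid-associated list had no common direction. Its median was −0.21, with 5 of 17 genes above 0, 4 called higher and 1 lower. Among members of no type the median was 0.25, and in other MØs it was −0.54. Acp5, an acid phosphatase, stood at 288 CPM in CR and 75.5 CPM in obese members (1.87), Itgax, which encodes CD11c, at 74.2 and 30.6 CPM (1.15), Trem2, a lipid-sensing receptor, at 521 and 703 CPM (−0.43) and Gpnmb at 238 and 467 CPM (−0.95). For Gpnmb, 3 cells held 75.4% of the CR UMIs, and its ratio was −0.05 (−0.53 to 0.41) in members of no type. The cathepsin gene Ctsk lay at 1.70, with 97.2% of its CR UMIs in 3 cells. Resident MØ genes had a median of −0.16 in members and −0.81 in other MØs, with Pf4 at −0.83 and Ccl8 at 1.98 (93.3% of its CR UMIs in 3 cells, and −0.58 in members of no type). Lysosomal genes had a median of −0.16, with Ctsh (884 and 400 CPM, 1.13) called higher and Ctsl called lower.

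Few genes were called in the remaining lists. Interferon response genes had a median of 0.23, with 1 of 8 called, Irf7, a regulator of type I interferon (55.7 and 23.6 CPM, 1.08). Glycolysis genes had a median of 0.06, with Pgk1 at 166 and 89.5 CPM (0.85). Sterol synthesis genes (0.23) and E2F and MuvB factors (0.71) each had 2 measured genes, among them E2f1, an activator of S phase genes, at 74.2 and 44.3 CPM (0.69). Growth factor receptors and self-renewal factors had a median of 0.00, with Csf1r at 193 and 261 CPM (−0.43).

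**Figure D5:**
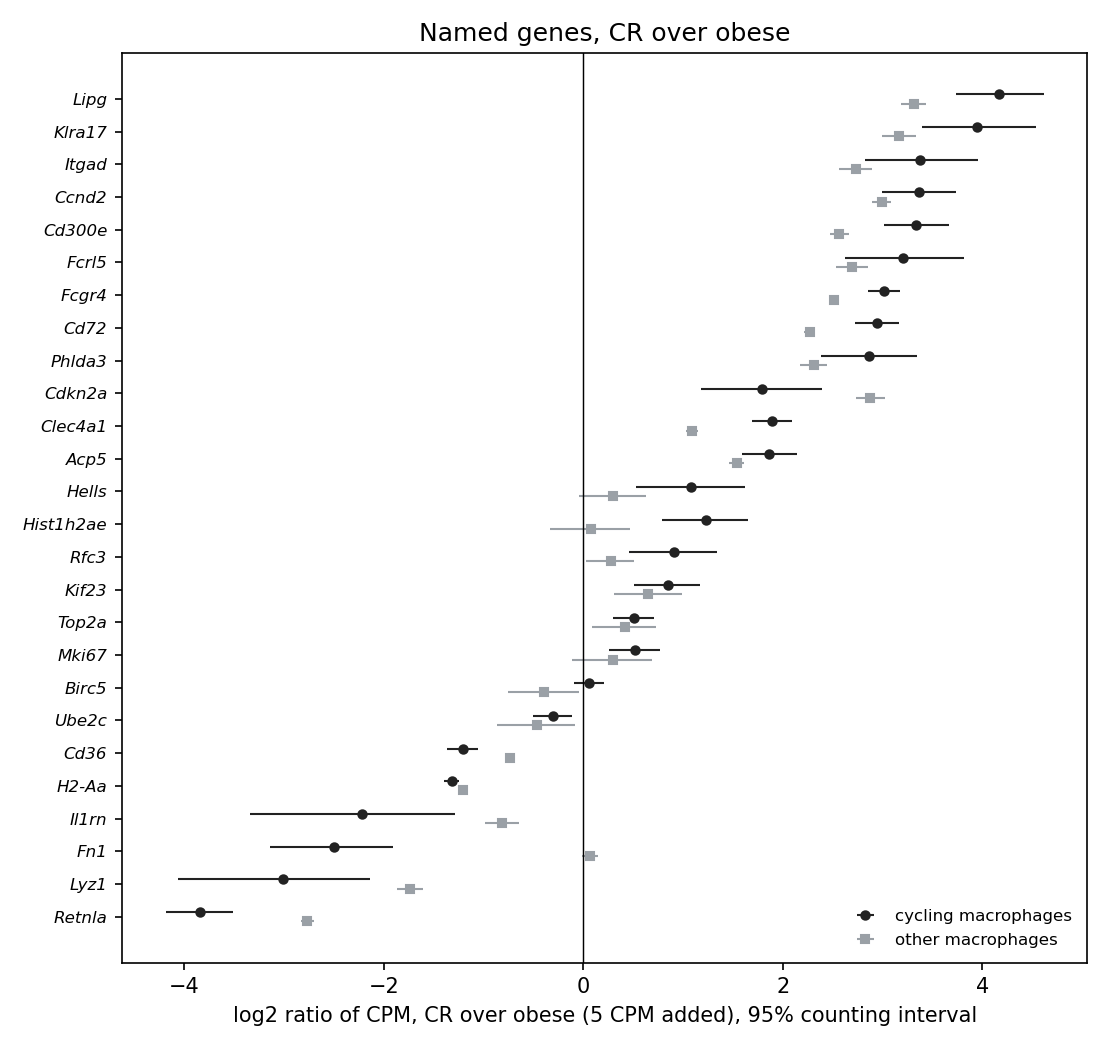
log2 ratio of CPM, CR over obese, for 26 genes in cycling MØs (circles) and other MØs (squares), with 95% intervals that cover counting error only. Fcgr4 and Ccnd2 lay at 3.01 and 3.36 and Retnla at −3.84 in cycling MØs, on the same side of 0 in other MØs, while Fn1 lay at −2.49 in cycling MØs and at 0.06 in other MØs.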

How the data were processed

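Live CD45+ cells were profiled with v2 3′ droplet chemistry, 1 library each from CR and obese VAT. The authors aligned reads to mm10 with Cell Ranger v2.2 and deposited UMI counts per gene and barcode, which were used as deposited (unit: counts). The lean library of the study was not analysed here. The members, gene lists, type rules and alternatives were chosen with earlier results of these data known. Thinning drew UMIs without replacement. Shares have exact binomial, levels exact Poisson and ratios exact conditional 95% intervals. Medians of position carry order statistic intervals over cells, and medians of list ratios carry the median of the genes' interval bounds. Named genes were the rule's and marker genes, the 4 largest ratios of each list, the 10 highest and 10 lowest ratios of CR over obese, the 10 highest of members over other MØs outside cell cycle lists, and the 6 highest genes of the replication and mitotic lists. Python 3.11.15, numpy 2.4.6, scipy 1.17.1 and matplotlib 3.10.9 were used. On simulated counts for 2977 genes of the CR against obese comparison, 95.7% of intervals held the true ratio and 100% of 200 genes changed 4-fold were called. The simulated counts had counting error only and no variation between cells. They therefore check the arithmetic of the intervals, and cannot show how the intervals hold for genes whose UMIs lie in few cells. Alternatives varied the cycle, lineage, type, depth and mitochondrial limits, the pseudocount, the scaling and the filter on low counts. Gene positions came from GENCODE on GRCm38. Values of 1 gene are not reported here.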

Additional observations from a re-analysis of the deposited data

Results flagged for a closer look

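Col3a1, a collagen gene of fibroblasts, and Saa3 ran in opposite directions between the diets in cycling and in other MØs. The log2 ratio of CR to obese was −1.26 for Col3a1 in cycling MØs and 2.33 in other MØs, and −3.98 for Saa3 in cycling MØs and 1.16 in other MØs. The difference between cycling and other MØs was not tested. Among obese cycling MØs, 3 cells held 94.6% of the Col3a1 and 97.5% of the Saa3 UMIs. In the stricter set Col3a1 lay at −1.74 and Saa3 at −1.72, and with at least 10 cycle UMIs Col3a1 lay at 0.63.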

How the results depend on the processing

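No paired analysis was possible because each group is 1 library, and no replicate could be left out for the same reason. Of 246 values on shares, positions and counts of genes, 210 stayed within their main interval or within 1.5 times their main count, and 36 did not. Of 240 list medians 225 stayed, 14 moved and 1 turned. For ratios of single named genes 1368 stayed, 224 moved and 16 turned, and of the 45 named genes called, 38 to 45 were still called under the alternatives other than members of no type, where 28 were. The CR cycling share lay below the obese share in every alternative run for it. The cause of these shifts was not tested.

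With at least 3 cycle UMIs the cycling share was 8.69% in obese VAT. With at least 10 it was 3.44% in CR and 4.70% in obese VAT, and 4.97% for obese MØs of no type. The obese replication-rich share was then 7.24%, 19 genes were lower in members of both libraries, and MHCII stood at −1.48. Col3a1 stood at 0.63, and Mmp12 turned to 0.46 from its main value of −0.21 (−0.42 to −0.007). Among all CR members, 3 cells held 93.4% of the Mmp12 UMIs. With members called at 2000 UMIs the obese share was 5.66%, 4.48% for Gpnmb-high and 6.33% for no type. With the published S and G2/M lists replication-rich members were 1.67% in CR and 1.77% in obese VAT.

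With types called at 4000 UMIs, CR MØs of no type were cycling at 7.53% and made up 60.3% of CR members, and obese Fcgr4-high MØs were cycling at 6.80%. With type limits of 2, 2 and 1, no type made up 33.3% of CR and 62.1% of obese members, Gpnmb-high 18.1% and Lyve1-positive 13.7% of obese members. With limits of 5, 5 and 3, Fcgr4-high made up 30.0% and no type 65.0% of CR members, Lyve1-positive 0% of CR members (cycling share 0%), and Gpnmb-high 5.29% and no type 89.0% of obese members.

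Without cells over 20000 UMIs, obese Gpnmb-high MØs were cycling at 5.02% and made up 7.65% of members, 67 genes were lower in CR members and 7 lower in members of both libraries, and medians were −1.52 for MHCII, 1.01 for sterol synthesis and −0.57 for lipid-associated genes, with Cdc20 at −0.38. With at least 3 UMIs of Csf1r and Adgre1, MHCII stood at −1.10, Mmp12 at 0.14 (main value −0.21) and Ifitm3 at 0.027. In the stricter set, chosen after seeing the data, MHCII stood at −1.22.

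With 20 CPM added, 81 genes were higher in CR members and 6 lower in members of both libraries. With median of ratios factors, MHCII stood at −1.45, lipid-associated genes at −0.36 and C1qb at −0.014. With per-cell CPM, 63 genes were lower in CR members, and MHCII stood at −1.76, C1qa at −0.011, C1qb at −0.030 and Cdc20 at −0.041. With at least 3 UMIs and no CPM minimum, 318 genes were higher and 104 lower in CR members, 344 higher and 32 lower in members of both libraries, and E2F and MuvB factors stood at 0.029.

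In members of no type, a choice made after seeing the data, 80 genes were higher in CR, and medians were −0.17 for histones and chromatin proteins, −0.92 for MHCII, 0.34 for glycolysis, 0.069 for lysosome and 0.25 for lipid-associated genes. There Cd68 stood at 0.15, C1qb at −0.023, Atp6v0d2 at 0.40, Trem2 at 0.28, Lpl at 0.36, Isg15 at −0.031 and Ccl8 at −0.58. The CR shares of Gpnmb-high and Lyve1-positive MØs rest on 3 and 2 members.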

Other observations

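Hbb-bs, a haemoglobin gene, stood at 187 CPM in CR and 6185 CPM in obese cycling MØs, with 74.3% of the obese UMIs in 3 cells, and in the stricter set its log2 ratio of CR to obese was −0.06. T cells held 366 CPM of it in CR and 9003 CPM in obese VAT. Cd79b, a chain of the B cell receptor complex, had a UMI in 58.3% of CR and 19.8% of obese cycling MØs (161 and 24.3 CPM, log2 ratio 2.51), at 2.00 in other MØs, while Ms4a1, another B cell gene, had no UMI in CR members and 0.998 CPM in obese ones. The mast cell gene Mcpt4 had a UMI in 20% of CR and 1.76% of obese cycling MØs (22.8 and 1.33 CPM), and in other MØs it stood at 29.9 and 7.23 CPM.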
